A study of Oryza sativa with 9 samples.

Results

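The dehydrin genes of rice were examined in leaves of the submergence-intolerant variety IR64. The 8 loci were listed by locus number, with earlier results of these data known. They are the RAB16 cluster on chromosome 11 (*LOC_Os11g26750*, *LOC_Os11g26760*, *LOC_Os11g26780* and *LOC_Os11g26790*), *LOC_Os11g26570* on the same chromosome, *LOC_Os02g44870* on chromosome 2, *LOC_Os01g50700* on chromosome 1 and *LOC_Os03g45280* on chromosome 3. Of the 38652 entries in the expression table, 7 were used for these 8 loci, since the transcript of *LOC_Os11g26780* was merged into the entry named *LOC_Os11g26790*. The table described 5 of the 7 entries as dehydrins and gave no description for *LOC_Os11g26570* and *LOC_Os01g50700*. The entry of *LOC_Os01g50700* held no transcript of that locus's own, so its values may not represent the gene. RefSeq's rice annotation lists the names RAB16D, RAB16C, RAB16B and RAB21 within 6 successive genes on chromosome 11, LIP9 on chromosome 2 and rab25 on chromosome 1, but it carries no locus numbers of this kind, and these names were not assigned to single loci.

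The libraries came from IR64 seedlings that were sprayed 20 days after germination and submerged 2 days later. PB-treated plants (PBT) received 25 mL of 200 mg/L paclobutrazol, an inhibitor of gibberellin synthesis, GA-treated plants (GAT) received 25 mL of 100 mg/L gibberellic acid, and control plants received the ethanol solvent at 0.1%. All plants were then kept under 100 cm of water, and leaves were sequenced after 4 days of submergence in 3 libraries per group, so every group was submerged and an effect of submergence itself cannot be read from these libraries. Expression was given as FPKM (fragments scaled by exon length and by the mapped fragments of the library), a level that can be compared between genes because of the scaling by length.

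Dehydrins are hydrophilic, largely unfolded proteins of the late embryogenesis abundant (LEA) group. They accumulate in maturing seeds and in vegetative tissue under drought, cold, salt or abscisic acid (ABA), and are thought to protect membranes and enzymes when cells lose water. The RAB16 genes take their name from their response to ABA, whose signal passes through SnRK2 kinases to bZIP transcription factors that bind ABA-responsive elements, while DREB factors act on dehydration-responsive elements.

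The leaf material carried its defining markers. Leaf markers (Rubisco small subunits and chlorophyll a/b binding proteins, 5 entries for 7 listed loci) summed to 11609 to 12372 FPKM in PBT, 8511 to 8762 FPKM in GAT and 18908 to 19833 FPKM in control. The seed list had 2 entries for 3 listed loci, and the shoot meristem list had 1 entry for 2. A glutelin entry of the seed list and the shoot meristem entry were listed at 0 in all 9 libraries, and the remaining seed entry reached at most 2.42 FPKM. The 1 root entry, for 3 listed loci, stood at 20.2 to 22.3 FPKM in PBT, 15.9 to 18.6 FPKM in GAT and 20.2 to 27.2 FPKM in control. In GAT/Control 3 of the 5 leaf entries were downregulated DEGs, against 853 of all 22946 tested entries. In PBT/Control 0 were, though 4 of the 5 had an adjusted p under 0.05 by limma and missed only the fold limit. The other, *LOC_Os01g41710*, was listed at 0 in PBT 2, beside 1060 and 1099 FPKM in PBT 1 and 3, which lowers the PBT 2 sum. It had 583 to 663 FPKM in GAT and 1542 to 1709 FPKM in control. Its GAT/Control SE of 2.30 (limma adjusted p = 0.772) rests on all groups, that 0 included. The leaf marker sums thus moved with the groups, in the reverse order of the dehydrin levels below, and their part in the dehydrin results was not tested. In bulk leaf RNA, fewer cells of a type and less RNA per cell cannot be told apart. Exact zeros need care, since 394 entries were listed at 0 in a single library of a group whose remaining libraries all exceeded 10 FPKM.

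Part of the dehydrin family was upregulated in GAT. In GAT/Control, 3 of the 6 dehydrin entries tested were upregulated DEGs (*LOC_Os03g45280*, *LOC_Os02g44870* and *LOC_Os11g26570*) and none was downregulated, against 4.71% of all 22946 tested entries called as upregulated. In PBT/Control, no dehydrin entry was a DEG by limma, against 2.87% upregulated over all entries, although 2 of the 6 had an unadjusted p under 0.05 and 1 of these, *LOC_Os03g45280*, also passed the adjusted limit and missed only the fold limit. In PBT/GAT, 1 dehydrin entry (*LOC_Os11g26570*) was a downregulated DEG, against 2.82% over all entries. DEGs were entries whose adjusted p was below 0.05 and whose log2 fold change was 1 or more in either direction, from limma's moderated test over the whole table with Benjamini-Hochberg adjustment. GAT/Control and PBT/Control share the same control libraries and are not independent of each other.

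Expression of the dehydrin family rested almost wholly on a pair of genes. *LOC_Os03g45280* was the most highly expressed dehydrin in each of the 9 libraries, and *LOC_Os02g44870* came next in each of the 9. *LOC_Os11g26570* followed, again above the next entry in 9 of 9 libraries. The *LOC_Os11g26780*/*LOC_Os11g26790* entry exceeded *LOC_Os11g26750* in only 5 of 9 libraries, so these neighbours in the order were not separated. *LOC_Os11g26750* exceeded *LOC_Os11g26760*, and *LOC_Os11g26760* exceeded *LOC_Os01g50700*, in 8 of 9 libraries each.

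*LOC_Os03g45280*, described as a dehydrin, had 978, 1051 and 974 FPKM in PBT, 1600, 1505 and 1533 FPKM in GAT, and 703, 670 and 675 FPKM in control. The 3 groups did not overlap, with every GAT library highest, every PBT library between and every control library lowest. Its means were 1001 ± 43.3 FPKM in PBT, 1546 ± 48.8 FPKM in GAT and 683 ± 17.6 FPKM in control (SD, n = 3 each). The log2 fold change in GAT/Control was 1.18 (SE 0.064, 95% interval 1.03 to 1.32, limma adjusted p = 1.7e-05), and the gene was called in all 20 alternative settings run for it. In PBT/Control it was higher by 0.55 on the log2 scale (SE 0.064, limma adjusted p = 0.00174), which passed the limit on p but not the fold limit. In PBT/GAT the log2 fold change was -0.63 (SE 0.064, limma adjusted p = 0.000647), also short of the fold limit. Without a variance trend, the PBT/Control difference had a limma adjusted p of 0.0757.

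*LOC_Os02g44870*, also described as a dehydrin, had 269, 70.7 and 289 FPKM in PBT, 387, 407 and 425 FPKM in GAT, and 29.2, 13.6 and 146 FPKM in control. The GAT libraries lay close together and above every other library, whereas PBT 2 was far below the other PBT libraries and control 3 far above the other controls. Its means were 210 ± 121 FPKM in PBT, 406 ± 19.1 FPKM in GAT and 62.9 ± 72.4 FPKM in control (SD, n = 3 each). The highest value was 4.10 times the lowest within PBT, 1.10 times within GAT and 10.8 times within control. The PBT and control libraries overlapped, since PBT 2 was below control 3.

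The log2 fold change of *LOC_Os02g44870* in GAT/Control was 3.34 (SE 0.81, 95% interval 1.49 to 5.20, limma adjusted p = 0.0315), the largest estimate among the 6 tested dehydrin entries. This call was held in 11 of 20 alternatives. It was lost when single libraries were left out, with limma adjusted p = 0.0515 without PBT 1, 0.0504 without PBT 3, 0.0969 without GAT 1, 0.0861 without GAT 2, 0.0847 without GAT 3, 0.109 without control 1 and 0.1 without control 2. It was also lost with no filter on low FPKM (limma adjusted p = 0.0599) and when only the 6 libraries compared were fitted (limma adjusted p = 0.069). Without control 3 the log2 fold change was 4.28 (limma adjusted p = 0.00754). In PBT/Control the estimate was 2.15 (SE 0.81, limma adjusted p = 0.187). When single libraries were left out, it ran from 1.42 without control 2 (limma adjusted p = 0.414) to 3.08 without control 3 (limma adjusted p = 0.0413), the only library whose removal made it a DEG. In PBT/GAT the estimate was -1.20 (SE 0.81, limma adjusted p = 0.442), with every PBT library below every GAT library, and it was -0.54 without PBT 2.

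**Figure D1:**
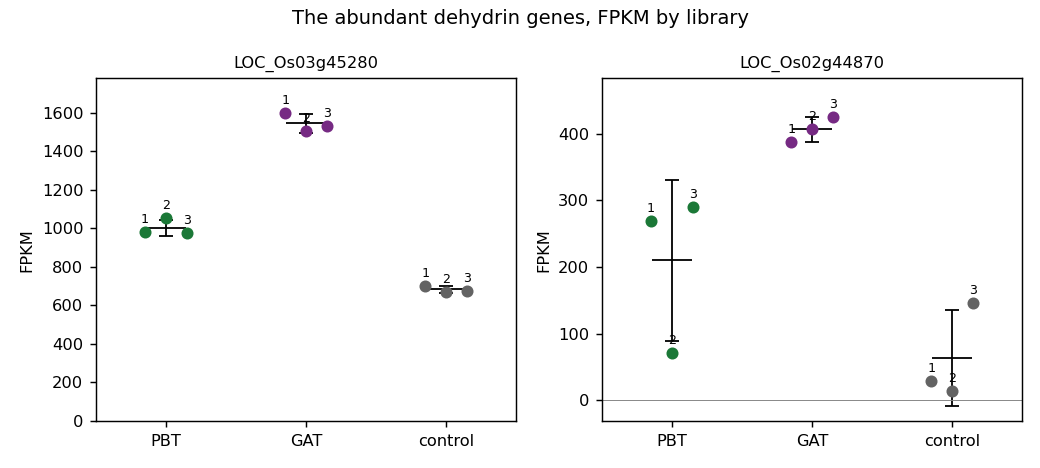
FPKM of *LOC_Os03g45280* and *LOC_Os02g44870* by group, with 1 numbered point per library and bars for the mean ± SD (n = 3 each). The *LOC_Os03g45280* libraries fall into 3 separate groups between 670 and 1600 FPKM, while *LOC_Os02g44870* shows PBT 2 at 70.7 FPKM and control 3 at 146 FPKM away from the rest of their groups.

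The contribution of the abundant pair to the summed dehydrin FPKM differed between libraries. The sum over the 7 entries was 1255, 1133 and 1276 FPKM in PBT, 2012, 1929 and 1973 FPKM in GAT, and 739, 692 and 827 FPKM in control. This came to 0.284%, 0.253% and 0.282% of all FPKM in PBT, 0.437%, 0.446% and 0.457% in GAT, and 0.157%, 0.149% and 0.178% in control. *LOC_Os03g45280* made up 76.4% to 92.8% of the sum in PBT, 77.7% to 79.5% in GAT and 81.5% to 96.9% in control. *LOC_Os02g44870* made up 6.24% to 22.7% of it in PBT, 19.2% to 21.5% in GAT and 1.96% to 17.6% in control. The ratio of mean FPKM of *LOC_Os03g45280* to *LOC_Os02g44870* was 4.78 in PBT, 3.80 in GAT and 10.8 in control.

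**Figure D2:**
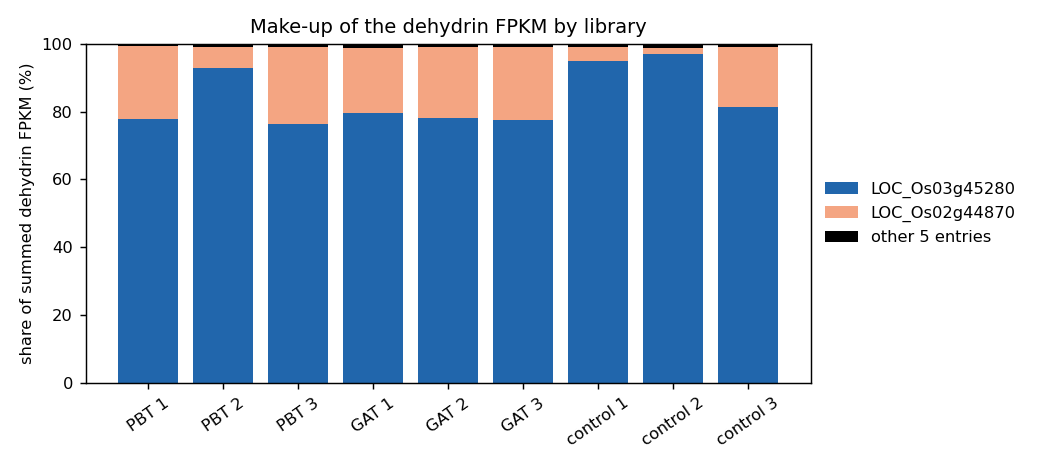
Share of the summed dehydrin FPKM, in percent, held in each library by *LOC_Os03g45280*, *LOC_Os02g44870* and the other 5 entries together. *LOC_Os03g45280* holds at least 76.4% in every library, and its share is highest (96.9%) in control 2, where *LOC_Os02g44870* has its lowest share (1.96%).

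*LOC_Os11g26570*, without a description in the table, had 4.13, 3.94 and 4.95 FPKM in PBT, 15.9, 12.3 and 8.26 FPKM in GAT, and 2.68, 3.80 and 4.64 FPKM in control. All GAT libraries were above all others, and the PBT and control libraries overlapped. Its means were 4.34 ± 0.54 FPKM in PBT, 12.2 ± 3.83 FPKM in GAT and 3.71 ± 0.98 FPKM in control (SD, n = 3 each). It was upregulated in GAT/Control, with a log2 fold change of 1.46 (SE 0.27, limma adjusted p = 0.00832), and was called in all 20 alternatives run. In PBT/Control the estimate was 0.20 (95% interval -0.41 to 0.80, limma adjusted p = 0.747). In PBT/GAT it was downregulated, with a log2 fold change of -1.26 (SE 0.27, limma adjusted p = 0.0204). This second call was lost without PBT 1 (limma adjusted p = 0.0668), PBT 2 (0.0729), PBT 3 (0.0504), GAT 1 (0.0614) or GAT 2 (0.0665).

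The genes of the RAB16 cluster were expressed at a low level in every library, with a summed level of 5.20 ± 1.92 FPKM in PBT, 6.92 ± 2.05 FPKM in GAT and 3.13 ± 0.81 FPKM in control (SD, n = 3 each, with a listed 0 taken as 0), and none of its 3 entries was a DEG in any of the 3 comparisons. Members of this cluster are close in sequence, and how reads that fit several of them were divided is not given in the sources used here, so their separate values are uncertain. *LOC_Os11g26750* had 1.23, 1.99 and 3.16 FPKM in PBT, 4.70, 2.21 and 2.36 FPKM in GAT, and 1.50 and 0.919 FPKM in control 2 and 3, with control 1 listed at 0. Every GAT library exceeded every control library, with a log2 fold change of 1.23 (SE 0.42, unadjusted p = 0.0172, limma adjusted p = 0.102), which did not pass the test. For PBT/Control the estimate was 0.84 (limma adjusted p = 0.314), and for PBT/GAT it was -0.38 (limma adjusted p = 0.641).

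*LOC_Os11g26760* had 0.647, 1.19 and 1.06 FPKM in PBT, 1.45, 0.654 and 1.79 FPKM in GAT, and 1.31, 0.0601 and 0.306 FPKM in control. The groups overlapped in all 3 comparisons, and the log2 estimates were 0.61 for GAT/Control (limma adjusted p = 0.36), 0.41 for PBT/Control (0.607) and -0.20 for PBT/GAT (0.803). The entry that holds *LOC_Os11g26780* and *LOC_Os11g26790* had 1.10, 3.19 and 2.05 FPKM in PBT, 2.72, 1.91 and 2.97 FPKM in GAT, and 2.42, 1.90 and 0.980 FPKM in control. These groups overlapped too, with log2 estimates of 0.38 for GAT/Control (limma adjusted p = 0.526), 0.15 for PBT/Control (0.863) and -0.23 for PBT/GAT (0.738).

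*LOC_Os01g50700* had the lowest level, with 0.320, 0.180 and 0.724 FPKM in PBT, 0.553, 0.183 and 0.141 FPKM in GAT, and 0.526 and 0.340 FPKM in control 1 and 2, with control 3 listed at 0. Its mean over the 9 libraries, 0.33 FPKM, was under the filter of 0.5 FPKM, and it was not tested. When no filter was applied, its log2 estimates were 0.012 for GAT/Control (limma adjusted p = 1), 0.13 for PBT/Control (0.852) and 0.12 for PBT/GAT (0.863).

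**Figure D3:**
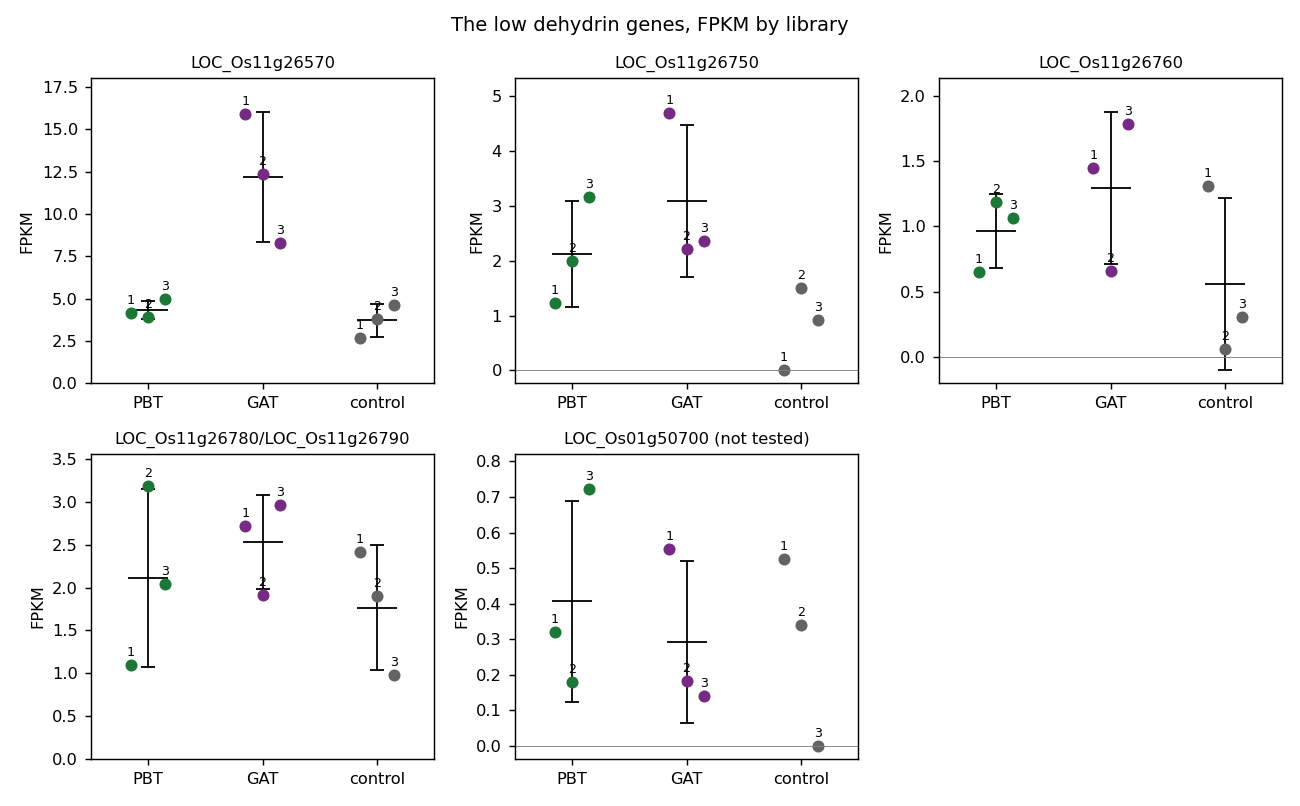
FPKM of the 5 dehydrin entries of low level by group, with 1 numbered point per library and bars for the mean ± SD (n = 3 each), which are left out where a library is listed at 0. The 3 GAT libraries of *LOC_Os11g26570* stand above all others, at 8.26 to 15.9 FPKM, and no library of the remaining 4 entries exceeds 4.70 FPKM.

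Across the family, the estimates pointed the same way for the 6 tested entries within each comparison. All 6 were above 0 in GAT/Control, with a median log2 fold change of 1.20 against 0.031 over all tested entries. The medians were 0.48 for the dehydrins and -0.038 for all entries in PBT/Control, and -0.51 for the dehydrins and -0.070 for all entries in PBT/GAT. Mean FPKM was highest in GAT, intermediate in PBT and lowest in control for 6 of the 6, an order held by 19.1% of all tested entries. The 6 entries each had a mean of at least 0.5 FPKM in every group, so none passed the filter through 1 group alone. By separation of libraries, GAT was above control without overlap for 4 of the 6 (16.8% over all entries), PBT was above control for 1 of the 6 (12.9%), and PBT was below GAT for 3 of the 6 (17.4%). Most of these estimates did not pass the test, and the direction of the *LOC_Os11g26780*/*LOC_Os11g26790* entry changed in PBT/Control to -0.093 without PBT 2 and -0.0745 without control 3, and in PBT/GAT to 0.027 without PBT 1.

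**Figure D4:**
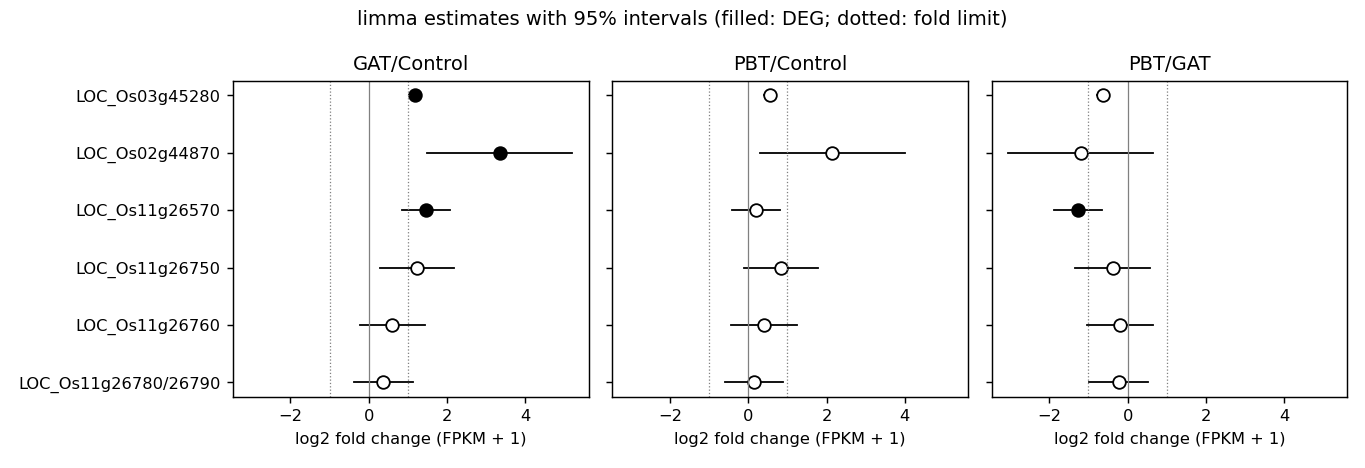
limma log2 fold changes (points) with 95% intervals (lines) of the 6 tested dehydrin entries, 1 panel per comparison, on the log2(FPKM + 1) scale. Filled points are DEGs (GAT/Control holds 3, PBT/Control 0, PBT/GAT 1), dotted lines mark the fold limit of 1, and the interval of *LOC_Os02g44870* is the widest.

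Replicate spread differed between the dehydrins. On the log2 scale, the libraries of *LOC_Os03g45280* lay within 0.071 of their group mean. Those of *LOC_Os02g44870* lay up to 1.87 above it (control 3), and as far as 1.46 below it in control 2 and 1.31 below it in PBT 2 (deviations of -1.46 and -1.31). Over the 9 libraries, in which the group differences are included, log2(FPKM + 1) of *LOC_Os03g45280* had a Pearson r of 0.86 with *LOC_Os11g26570* and 0.78 with *LOC_Os02g44870*. With the RAB16 entries, r was 0.73 for *LOC_Os11g26750*, 0.61 for *LOC_Os11g26760* and 0.48 for *LOC_Os11g26780*/*LOC_Os11g26790*. With the untested *LOC_Os01g50700*, r was 0.0205. These values describe 9 libraries that share these groups.

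The entries whose pattern was most like each abundant dehydrin were sought among 22940 other tested entries by Pearson r over the 9 libraries. For *LOC_Os03g45280* these were *LOC_Os01g64170* (described as a glycosyl hydrolase of family 17, r = 0.9954), *LOC_Os09g37760* (a bromodomain protein, r = 0.9947) and *LOC_Os03g04430* (a protein phosphatase 2C, r = 0.9939). *LOC_Os03g04430* had 49.3, 53.4 and 51.3 FPKM in PBT, 92.0, 81.2 and 85.9 FPKM in GAT, and 27.8, 30.6 and 30.0 FPKM in control. For *LOC_Os02g44870* they were an entry without a locus name (r = 0.9679), *LOC_Os09g28340* (an expressed protein, r = 0.9633) and *LOC_Os01g62890* (no description, r = 0.9589). *LOC_Os09g28340* had 4.74, 1.47 and 3.15 FPKM in PBT, 3.39, 3.25 and 3.69 FPKM in GAT, and 0.777, 0.229 and 2.60 FPKM in control. It was picked for its likeness over these same 9 libraries, so the uneven replicates it shares with *LOC_Os02g44870* follow from that choice.

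Genes that act around the dehydrins were read from 4 lists. SnRK2 kinases, ABA-responsive factors and DREB factors were listed by locus number, and the table describes only some of their entries. Other LEA genes were taken by their descriptions, leaving out the dehydrins. Of 10 tested entries listed as SnRK2 kinases, 2 were upregulated in GAT/Control and 2 in PBT/Control, against 4.71% and 2.87% of all entries. In GAT/Control, *LOC_Os10g41490* (log2 fold change 0.77, limma adjusted p = 0.0134) and *LOC_Os01g64970* (-0.54, 0.029) passed the adjusted limit but not the fold limit. The median of the 10 entries was 0.0046 in GAT/Control and 0.13 in PBT/Control. No SnRK2 entry was a DEG in PBT/GAT, where 1 (*LOC_Os02g34600*) had a limma adjusted p of 0.00602 and a log2 fold change of -0.75, short of the fold limit. *LOC_Os07g42940*, without a description, had 98.7, 114 and 118 FPKM in PBT, 115, 102 and 116 FPKM in GAT, and 8.46, 15.6 and 25.0 FPKM in control. Its log2 fold change was 2.80 in GAT/Control and 2.80 in PBT/Control (limma adjusted p = 0.000642 and 0.00147), and its estimate in PBT/GAT was -0.0059 (SE 0.31). *LOC_Os02g34600*, described as a CAMK-like kinase, had 40.3, 45.6 and 42.7 FPKM in PBT, 66.3, 76.0 and 76.6 FPKM in GAT, and 14.0, 14.1 and 13.9 FPKM in control. It rose by 2.30 in GAT/Control and by 1.55 in PBT/Control on the log2 scale (limma adjusted p = 1.35e-05 and 0.000231).

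Of the ABA-responsive transcription factors, 5 of 7 listed loci were tested and 2 were listed at 0 in all libraries. None of the 5 was a DEG by limma in the 3 comparisons, while 2 entries for GAT/Control, 0 for PBT/Control and 2 for PBT/GAT had an unadjusted p under 0.05. Of these, *LOC_Os01g64730* passed the adjusted limit and missed only the fold limit, with a log2 fold change of 0.80 for GAT/Control (limma adjusted p = 0.0234) and -0.79 for PBT/GAT (0.0314). *LOC_Os02g52780*, named after its values were seen, had 76.8, 73.9 and 74.8 FPKM in PBT and 39.4, 37.6 and 38.7 FPKM in control. Its GAT libraries had 92.4, 21.5 and 20.2 FPKM. The PBT/Control estimate was 0.945 (SE 0.49, limma adjusted p = 0.34), with every PBT library above every control library. Its SE rests on the spread within all 3 groups, GAT among them. The median of the 5 entries in PBT/Control was 0.018. Of 7 tested DREB factors, *LOC_Os01g07120* was upregulated in GAT/Control (log2 fold change 1.52, limma adjusted p = 0.00214). In the same comparison, *LOC_Os05g27930* (log2 fold change 0.85, limma adjusted p = 0.0408) and *LOC_Os09g35030* (-0.47, 0.00821) passed the adjusted limit but not the fold limit. Over all 22946 tested entries, 1080 were upregulated in GAT/Control and 799 in PBT/GAT. *LOC_Os09g35030*, a DREB protein by its description, had 484, 520 and 499 FPKM in PBT, 211, 202 and 186 FPKM in GAT, and 288, 278 and 263 FPKM in control, and was upregulated in PBT/GAT (log2 fold change 1.33, limma adjusted p = 5.42e-05). No DREB factor was a DEG in PBT/Control, where 2 had an unadjusted p under 0.05 and 1 of these, *LOC_Os09g35030*, had a limma adjusted p of 0.000851 at a log2 fold change of 0.86. *LOC_Os09g35010*, chosen after its values were seen, had the largest estimate of the list in GAT/Control, -4.04, which did not pass the test (SE 1.68, limma adjusted p = 0.175). It had 157 and 149 FPKM in PBT 2 and 3, with PBT 1 listed at 0, against 15.2, 15.1 and 7.18 FPKM in GAT and 211, 209 and 214 FPKM in control. Every GAT library was thus below every control library. The SE rests on the spread within all 3 groups, so the 0 listed in PBT 1 enters this comparison too.

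Of 11 LEA genes outside the dehydrins, 6 were tested, and no DEG was found in GAT/Control or PBT/Control, where 2 and 3 had an unadjusted p under 0.05. The adjusted limit was passed, below the fold limit, by *LOC_Os03g62620* in GAT/Control (log2 fold change 0.90, limma adjusted p = 0.0183) and by *LOC_Os01g21250* in both, at -0.77 for GAT/Control (0.00832) and 0.84 for PBT/Control (0.00942). *LOC_Os01g21250*, described as a late embryogenesis abundant protein, was upregulated in PBT/GAT by 1.61 on the log2 scale (limma adjusted p = 0.000263). It had 104, 111 and 124 FPKM in PBT, 40.8, 34.5 and 34.5 FPKM in GAT, and 68.4, 67.0 and 54.2 FPKM in control. Here PBT was highest and GAT lowest, whereas *LOC_Os03g45280* was highest in GAT and lowest in control. The log2 fold changes of the 6 LEA entries in GAT/Control went in both directions, from -0.77 to 0.90. Their median was 0.14, against 1.20 for the dehydrins, but it fell in a gap from -0.52 (*LOC_Os10g29570*) to 0.795 (*LOC_Os05g08920*). *LOC_Os10g29570* reached at most 1.60 FPKM, and *LOC_Os05g08920* was listed at 0 in PBT 1, PBT 3 and control 2. The difference between the lists was not tested.

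**Figure D5:**
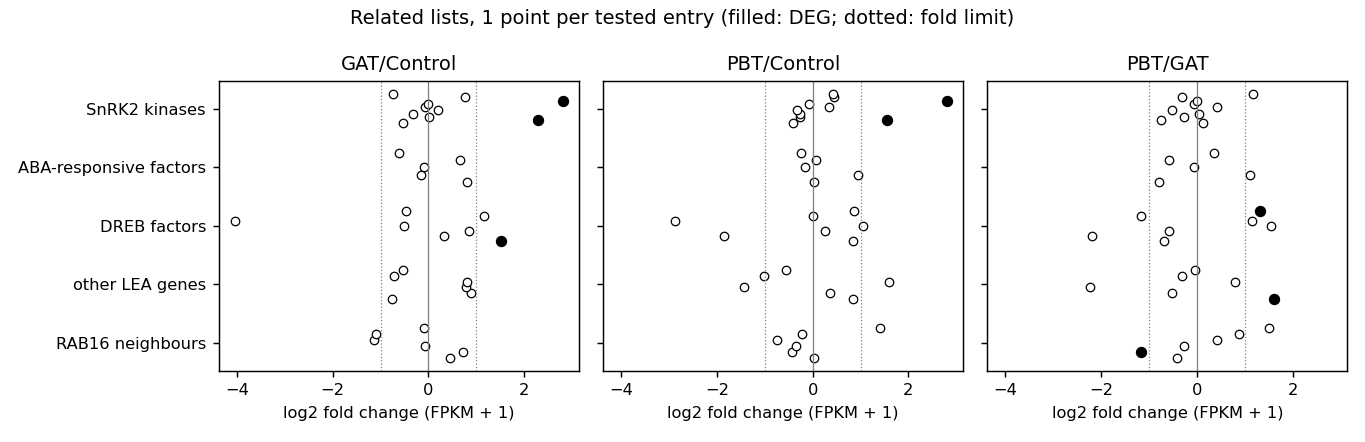
limma log2 fold changes of the tested entries of the 5 related lists, 1 panel per comparison, with 1 point per entry and filled points for DEGs. The filled SnRK2 points lie at 2.80 and 2.30 in GAT/Control and at 2.80 and 1.55 in PBT/Control, and no ABA-responsive factor is filled.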

How the data were processed

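Leaf mRNA of 9 IR64 libraries was sequenced, 3 each of PBT, GAT and control. Groups and doses follow the labels, which give ethanol as the solvent of the control where the paper's methods give methanol. FPKM per gene and library were deposited. The paper's methods name Tophat for aligning clean reads to rice pseudomolecules and Cufflinks for FPKM, and the submitters' processing notes also name Bowtie 0.12.2. Many deposited entries carry identifiers that begin with MSTRG, and the paper does not say which program gave them. FPKM keeps no depth that could be recovered from these values, so no counting interval is given. The paper describes a randomized block layout of pots and calls the sequenced replicates biological. It does not say how plants, pots or blocks were divided among the libraries, and the labels add nothing. The p-values thus measure the spread between these libraries.

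Entries averaging 0.5 FPKM or more were kept (22946 of 38652), and log2(FPKM + 1) was fitted with limma 3.58.1 in R 4.3.3, as 3 group means over all 9 libraries with a variance trend. The pseudocount understates the change of low genes. p was adjusted by the Benjamini-Hochberg method over all entries per comparison. The fit was tested on simulated data. The text names all 8 loci, the called entries of the related lists (at most 4 per list) and the 3 entries most like each of the 2 most abundant dehydrins. *LOC_Os01g41710*, *LOC_Os01g64730*, *LOC_Os01g64970*, *LOC_Os02g52780*, *LOC_Os03g62620*, *LOC_Os05g08920*, *LOC_Os05g27930*, *LOC_Os09g35010*, *LOC_Os10g29570* and *LOC_Os10g41490* were added to these after their values were seen. The loci and lists were chosen with earlier results of these data known. A file per library was also deposited, and 4 of the 9 name another library's column. Among these, the file of GAT 1 names the PBT 3 column, which is of another group, and no file names the GAT 3 column. All 9 equal the table column they name, and only the table was used. Gene coordinates and sequences were not used here. In all, 23 alternatives were run, among them other pseudocounts, filters and scalings, each library left out, and a replicate block.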

Additional observations from a re-analysis of the deposited data

Results flagged for a closer look

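A second entry carries the name *LOC_Os02g44870* and was used in no comparison, since its transcripts do not include that locus's own. It was listed at 0 in 8 of 9 libraries, among them the 3 controls, and at 1.50 FPKM in GAT 3. Summing it with the entry used left each dehydrin call as it was.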

How the results depend on the processing

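The dehydrin DEG counts in GAT/Control were 2 to 4 over the alternatives, against 3 of 6 tested entries as reported. Without a filter 7 entries were tested and 2 called, and with a filter of 5 FPKM 3 were tested and 3 called. In PBT/Control the count was 0 as reported, 0 to 1 when single libraries were left out (1 without control 3), and 1 without the fold limit or with an unadjusted p. In PBT/GAT it was 1 as reported, 0 to 1 when single libraries were left out, 0 with the replicate block, 2 without the fold limit, and 0 at an adjusted p under 0.01. Under the replicate block, *LOC_Os11g26570* had a limma adjusted p of 0.0634 in PBT/GAT. The deviations of libraries with the same number correlated at -0.037 to 0.012 over 9 pairs. Such correlations do not show whether these libraries shared a pot or a block. The direction changed in 3 cases, all of the *LOC_Os11g26780*/*LOC_Os11g26790* entry. Its log2 fold change in PBT/Control ran from -0.093 to 0.40 and in PBT/GAT from -0.47 to 0.027 when single libraries were left out. Over all genes, 1933 DEGs were called for GAT/Control, 996 for PBT/Control and 1446 for PBT/GAT. With a filter of 5 FPKM they were 1200 in GAT/Control and 933 in PBT/GAT, at an adjusted p under 0.01 they were 1109, 523 and 749, and with an unadjusted p 3032, 2063 and 2496. The causes were not tested. The low FPKM of the RAB16 entries limits what their comparisons can show.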

Other observations

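Around the RAB16 cluster, 6 of 12 listed neighbouring loci were tested. *LOC_Os11g26850*, described as an erythronate-4-phosphate dehydrogenase, was the 1 downregulated DEG in PBT/GAT (log2 fold change -1.16, limma adjusted p = 0.000274), against 2.82% of all entries. It had 61.4, 62.0 and 57.2 FPKM in PBT, 133, 141 and 132 FPKM in GAT, and 84.7, 75.4 and 84.1 FPKM in control, so the PBT libraries were lowest here, unlike in the dehydrin entries, whose means were lowest in control. No neighbour was a DEG by limma in GAT/Control or PBT/Control, where the same locus had an adjusted p under 0.05 and missed only the fold limit, at 0.73 for GAT/Control (limma adjusted p = 0.00209) and -0.43 for PBT/Control (0.0435), and no other had an unadjusted p under 0.05.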
